A study of Mus musculus with 3 samples.

Results

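Aerocytes, or aCap cells, are the large, flat capillary endothelial cells of the lung alveoli, and their transcripts were examined here in 4021 of 31092 endothelial barcodes from 3 droplet single-cell libraries of mouse lung. A barcode is the tag of 1 droplet, and a UMI (unique molecular identifier) marks 1 captured RNA molecule. Aerocyte barcodes had 1000 to 5000 detected genes, under 20% of UMIs from mitochondrial genes, at least 2 UMIs of the endothelial genes Pecam1 and Cdh5 together and at least 4 UMIs of Ednrb, Fibin, Tbx2, Chst1 and Apln together. The sum of these 5 aerocyte genes also had to exceed the sum of Gpihbp1, Kit, Plvap and Aplnr, 4 genes of general capillary cells (gCap). Barcodes that met the mirrored rule, with at least 4 UMIs of the gCap genes and the larger sum for them, served as the comparison and numbered 25042. The 2 sums chose the members, so their values describe the rule and are no finding, and all comparisons of aerocytes with gCap barcodes below are descriptions of the same cells.

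The study asked how the lung endothelium changes while melanoma cells colonize the lung. C57BL/6 mice received 200000 B16-F10 cells, a mouse skin melanoma line, in 100 µl of PBS through the tail vein and their lungs were taken 6 h or 30 h later, while control mice received PBS. The study's methods give male C57BL/6JRj mice of 8 to 10 weeks and the labels a control taken at 6 h, so that at 30 h the time, the melanoma cells and the library cannot be told apart. Each group is 1 library from pooled animals. The number of mice per pool is 2 in the labels and 3 in the methods, and it was not settled which of them is right. Lungs were digested with collagenase for 1 h at 37°C, and Pecam1-positive, Ptprc-negative cells were sorted. Per the labels, melanoma cells went into the 6 h library as well, and whether any went into the 30 h library was not settled.

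Alveolar capillaries are a mosaic of both cell types. General capillary cells are the smaller type, carry the lipase anchor Gpihbp1 and the stem cell factor receptor Kit, and can give rise to new capillary cells. Aerocytes spread over the thin face of the alveolus where gas is exchanged, and are known for the carbonic anhydrase Car4, for the endothelin receptor Ednrb and for a strong dependence on VEGF from the alveolar epithelium. In this pairing aerocytes make the peptide apelin (Apln) and general capillary cells its receptor (Aplnr).

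The libraries were of similar depth, with 124085451 to 140601123 UMIs in all and 9278 to 11231 endothelial barcodes. Values below are given in the order control, 6 h, 30 h. The control held 1436 aerocytes, the 6 h library 1191 and the 30 h library 1394. Aerocytes had more RNA per barcode than gCap barcodes, with medians of 10509.5, 10493 and 11421.5 UMIs against 7714, 8046 and 8611.5. Their median number of detected genes was 3770, 3787 and 3842.5, and mitochondrial genes made up a median of 1.89%, 1.93% and 2.16% of their UMIs. No aerocyte barcode occurred in more than 1 library, while 22 to 38 endothelial barcodes were shared by each pair of libraries. With 1 library per group no difference between libraries can be set against a replicate spread, so no test was made. All intervals are 95% intervals that cover counting error only. They are exact, except those of differences between shares, which combine the exact bounds of both shares.

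Levels are UMIs summed over the aerocytes of a library and divided by their total, in CPM (counts per 1000000 UMIs). The totals were 14880050, 12336338 and 15495324 UMIs, so that 3 UMIs correspond to 0.202, 0.243 and 0.194 CPM. Reads were counted at the 3′ ends of transcripts, and levels are compared between libraries or cell types for the same gene, not between genes.

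RNA of cells other than endothelium was present at levels that differed between libraries, and not always in the same order in aerocytes, gCap barcodes and empty droplets. Red cell genes summed to 3011, 1393 and 708 CPM in aerocytes and to 27139, 17667 and 7167 CPM in droplets of at most 100 UMIs, called empty here, whose RNA is mostly free in the suspension. Genes of AT2 and club cells, the secretory cells of the epithelium, summed to 782, 154 and 97.7 CPM in aerocytes, to 572, 568 and 241 CPM in gCap barcodes and to 9417, 6464 and 6283 CPM in empty droplets. Mural genes, of the contractile cells that wrap vessels, summed to 214, 128 and 121 CPM in aerocytes, 85.4, 83.3 and 103 CPM in gCap barcodes and 265, 214 and 307 CPM in empty droplets. The leukocyte list summed to 90.5, 35.7 and 23.5 CPM in aerocytes, with its defining gene Ptprc at 0.403, 0.243 and 0.903 CPM. In gCap barcodes this list summed to 57.7, 82.6 and 61.02 CPM and in empty droplets to 688, 1149 and 1149 CPM, so both were lowest in the control, where the aerocytes were highest. The melanoma list summed to 43.9, 63.6 and 45.2 CPM in aerocytes, and to 18.3, 233 and 19.4 CPM in empty droplets. Its defining genes Dct and Mlana reached 4.94 and 1.46 CPM in aerocytes of the 6 h library, while Gpnmb, which other cells also express, was at 18.1, 19.5 and 24.4 CPM. Gene models that can collect ribosomal RNA reads went the other way, with 4583, 5867 and 18270 CPM in aerocytes and 6700, 8585 and 39812 CPM in empty droplets. The part of this RNA in the results below was not tested, and the genes concerned are named where they occur.

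The marker sums, which the rule fixed, show how far members lay from its limits. The summed UMIs of the 5 aerocyte genes per aerocyte had medians of 33, 29 and 41, with middle 50% ranges of 21 to 47, 18 to 39 and 26 to 55, and reached 117, 103 and 124 in the highest barcodes. In gCap barcodes the median of this sum was 0 in each library, and that of the gCap genes was 24. Of the aerocytes, 696, 649 and 980 barcodes (48.5%, 54.5% and 70.3%) held UMIs of all 5 genes, and 18, 11 and 13 held UMIs of 1 gene. The 30 h library thus had the highest marker sums and the largest share with all 5.

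**Figure D1:**
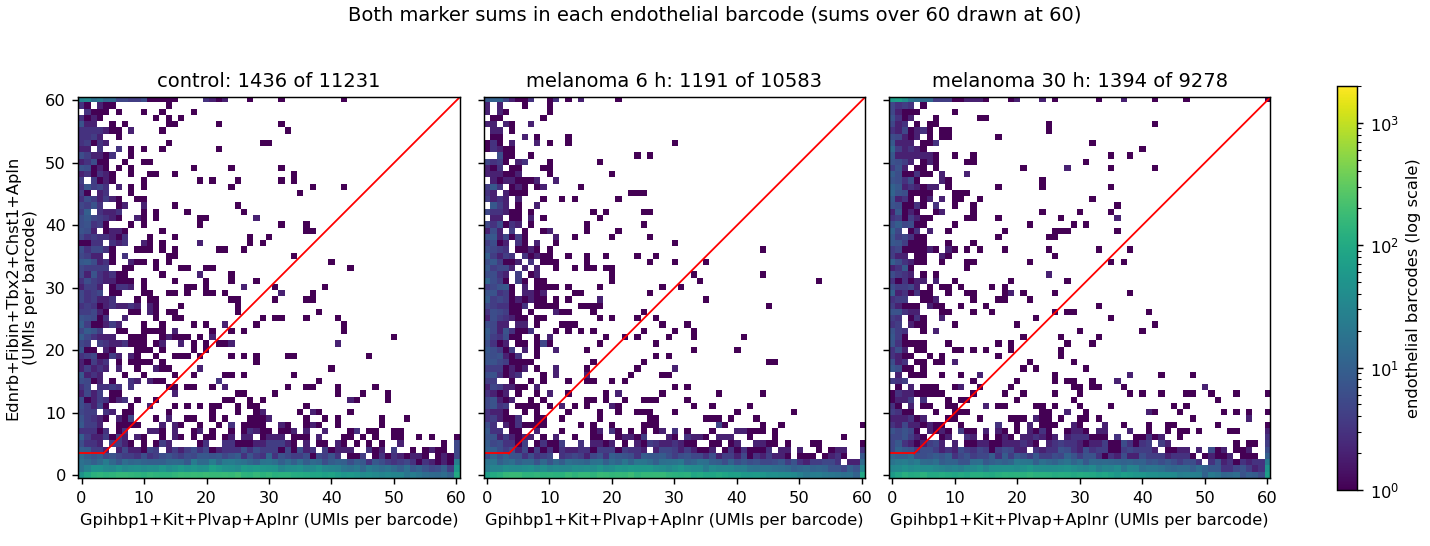
Both marker sums of each endothelial barcode, 1 panel per library, with UMIs of the 5 aerocyte genes on the vertical axis, UMIs of the 4 gCap genes on the horizontal axis and the number of barcodes as colour on a log scale. The red line is the aerocyte limit, above which lie 1436, 1191 and 1394 barcodes, most of them at the left edge where the gCap sum is close to 0.

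Some members lay close to the limits. Members with a marker sum of 4 to 7 UMIs made up 5.43%, 8.06% and 7.25% of aerocytes and had medians of 3436.5, 3307.5 and 3439 UMIs, far below the typical aerocyte. At a marker sum of 4, just inside, there were 27, 31 and 31 barcodes, with Car4 at 1089, 548 and 914 CPM. At a sum of 3, just outside, there were 30, 25 and 32 barcodes, with Car4 at 935, 280 and 543 CPM. Car4 was not used by the rule, and in both sets it lay below the level over all members. At the other limit, 69, 62 and 65 members exceeded the gCap sum by 1 to 3 UMIs and had Car4 at 946, 897 and 1165 CPM. The 57, 48 and 56 barcodes with equal sums or an aerocyte sum up to 3 below had Car4 at 713, 768 and 941 CPM.

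Most members also held at least 1 UMI of the gCap genes. The gCap sum was 0 in 20.8%, 22.2% and 26.9% of aerocytes and at least 4 UMIs in 537, 380 and 392 of them (37.4%, 31.9% and 28.1%). The gCap gene Ptprb, a phosphatase of the Tie2 receptor that the rule did not use, was at 591, 483 and 545 CPM in members with a gCap sum of at least 4. In members without any UMI of the gCap genes it was at 72.8, 62.1 and 74.2 CPM, and in gCap barcodes at 2815, 2433 and 2501 CPM. Scrublet, a program that marks likely doublets (droplets with more than 1 cell), marked 31.1%, 25% and 27.8% of the members with a gCap sum of at least 4, and 3.11%, 2.34% and 2.1% of the others. Over all members it marked 13.6%, 9.57% and 9.33%, against 8.80%, 8.76% and 7.34% of the other endothelial barcodes. The highest scores were marked, up to a number set by the barcodes of the library: 9.21%, 8.75% and 7.62% of those scored. The shares are therefore not compared between libraries. No doublet was removed from the values below, and each count was repeated without the marked barcodes.

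**Figure D2:**
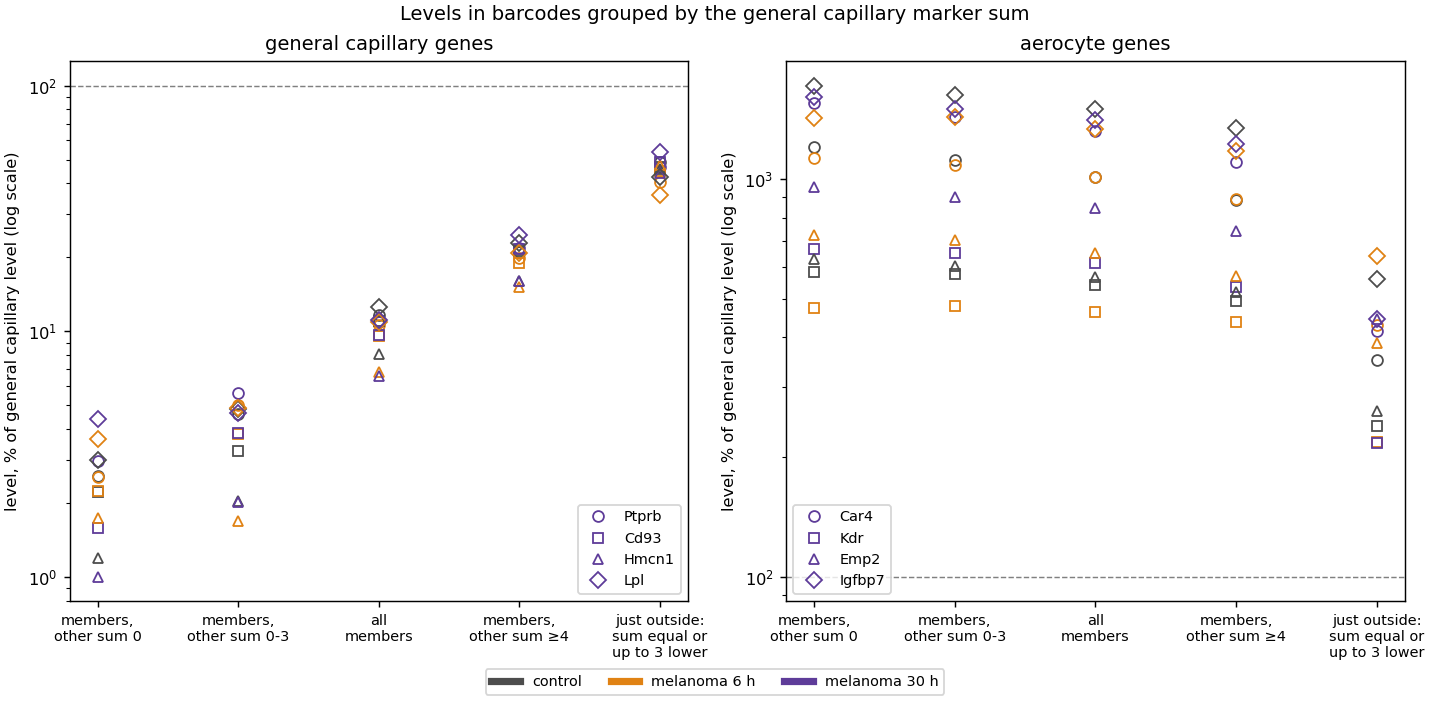
Levels of 4 gCap genes and 4 aerocyte genes outside the rule, as a percent of their level in gCap barcodes on a log axis, for members split by their UMIs of the gCap rule genes and for barcodes just outside the rule, with symbols for genes and colours for libraries. The gCap genes are lower in members without gCap UMIs, where Ptprb was at 62.1 to 74.2 CPM, than over all members. The aerocyte genes lie far above the dashed line of the gCap level in all member strata.

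The label was set beside 17 aerocyte markers outside the rule. Each was at least 2-fold higher in aerocytes than in gCap barcodes in all 3 libraries. These markers were chosen with earlier results of these data known. Car4, Rprml, Cd34, Itga3, Itgb5, Sirpa and Prdm1 are also in the study's list below, so this is no independent check. Over the 8788 genes measured in this comparison, 340 (3.87%) were at least 2-fold higher and 469 (5.34%) at least 2-fold lower in all 3 libraries. The rule used the same cells, so nothing further is read from these counts. Car4, which interconverts carbon dioxide and bicarbonate at the cell surface, was at 2062, 1817 and 2994 CPM in aerocytes and at 203, 179 and 226 CPM in gCap barcodes. The VEGF receptor Kdr was at 1417, 1415 and 2255 CPM against 262, 305 and 367 CPM. Igfbp7, a secreted binding protein of the vascular matrix, was at 6151, 6177 and 5609 CPM against 409, 463 and 398 CPM. All 45 genes outside the rule of the aerocyte list that the study drew from cells including these libraries were higher as well, which is not independent evidence.

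**Figure D3:**
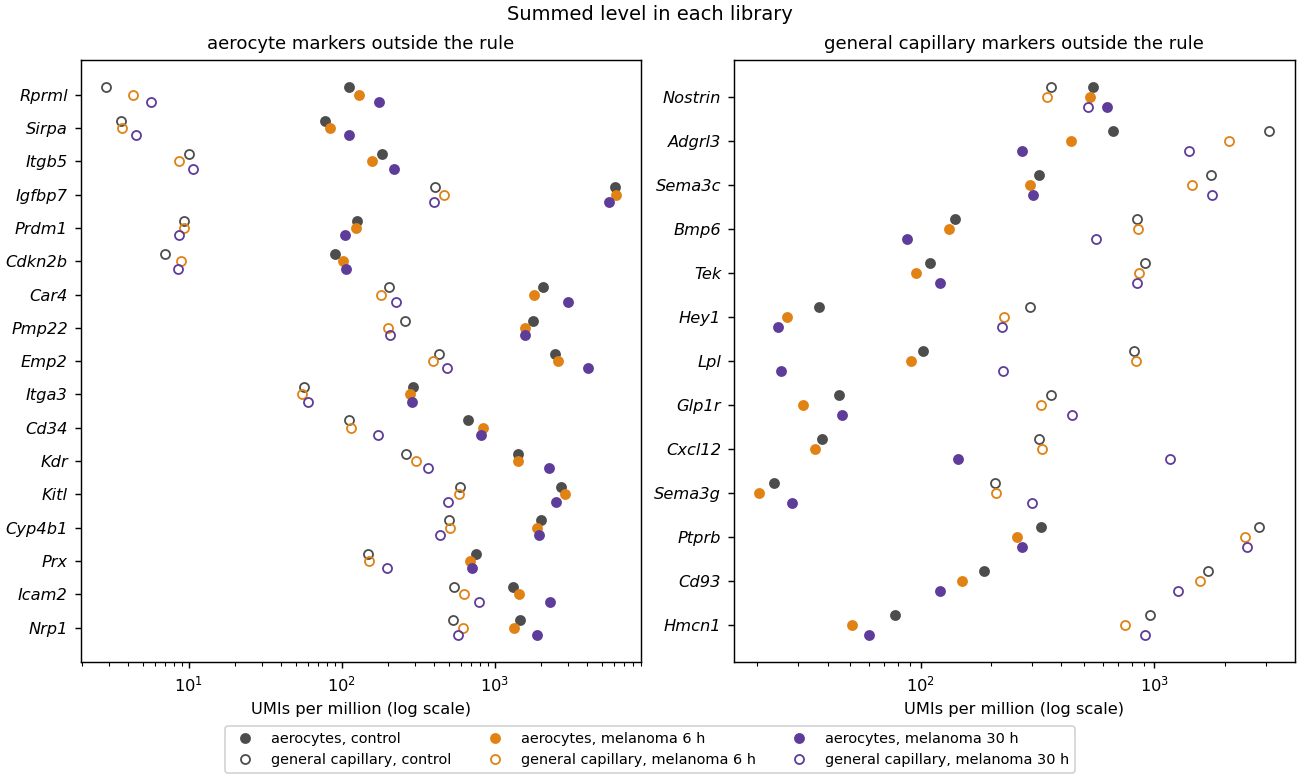
Levels of the 17 aerocyte markers and 13 gCap markers outside the rule in aerocytes (filled points) and gCap barcodes (open points), in UMIs per 1000000 on a log axis, with 1 point per library. Car4 sits between 1817 and 2994 CPM in aerocytes and between 179 and 226 CPM in gCap barcodes, and Nostrin is the gCap marker without lower levels in aerocytes.

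The rule genes themselves were Ednrb (ENSMUSG00000022122, chr14:103814625-103844402, minus strand, build mm10), Fibin (ENSMUSG00000074971, chr2:110360917-110363183, minus), Tbx2 (ENSMUSG00000000093, chr11:85832551-85841948, plus), Chst1 (ENSMUSG00000027221, chr2:92599707-92615250, plus) and Apln (ENSMUSG00000037010, chrX:48025146-48034853, minus). Car4 (ENSMUSG00000000805) lies at chr11:84957786-84966044 on the plus strand. Ednrb, a G protein-coupled receptor for endothelins, was at 1229, 1005 and 1501 CPM in aerocytes (95% intervals of 1211 to 1247 CPM, 988 to 1023 CPM and 1482 to 1520 CPM) and at 33.4, 26.5 and 35.1 CPM in gCap barcodes. Fibin, a secreted protein, was at 1125, 716 and 929 CPM. Tbx2, a T-box transcription repressor, was at 647, 680 and 651 CPM, and the levels of the 3 libraries lay close together. Chst1, a sulfotransferase of the cell surface glycans, was at 252, 310 and 298 CPM.

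Outside the rule, Rgs6, Pde8b and Tmeff2 were among the genes with the highest ratios over gCap barcodes. Rgs6, a regulator of G protein signalling, was at 561, 574 and 589 CPM against 14.2, 12.9 and 9.76 CPM. Pde8b, a cyclic AMP phosphodiesterase, was at 346, 284 and 276 CPM against 10.2, 7.53 and 8.03 CPM. Tmeff2, a transmembrane protein with follistatin domains, was at 361, 359 and 336 CPM against 8.74, 7.63 and 10.7 CPM. Rprml, a relative of the cell cycle gene Reprimo, and Fndc1, a fibronectin domain protein, were also among the 15 genes with the highest ratios, as were Frrs1, Ccdc184, Adamtsl5, Dpysl5, Egflam and Slc22a23.

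Transcription factors differed in both directions. Of the 22 measured, 4 were higher in aerocytes, among them Tbx2, a rule gene whose higher level was fixed by the rule. Its relative Tbx3 was at 1028, 1067 and 1177 CPM against 282, 286 and 222 CPM. The repressor Prdm1 was at 126, 124 and 105 CPM against 9.32, 9.27 and 8.56 CPM. Foxp1, Sox17, Hey1, Meis2, Gata3 and Gata6 were lower. Sox17, a factor of arterial identity, was at 41.0, 32.3 and 40.1 CPM against 265, 265 and 271 CPM.

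Integrins, which tie the cell to its matrix, were divided between the cell types. Among 15 measured integrin and attachment genes, Itga3, Itgb5, Tns3, Lmo7 and Carmil1 were higher and Itga1, Itga5, Itga6, Itga9 and Tns1 lower in aerocytes. Itgb5 was at 184, 157 and 220 CPM against 10.0, 8.65 and 10.6 CPM, and Itga3, a laminin-binding subunit, at 290, 280 and 289 CPM against 56.6, 55.0 and 60.1 CPM. Itga6, the other laminin-binding subunit of the list, was at 36.8, 38.7 and 44.6 CPM against 303, 342 and 468 CPM. The collagen-binding subunit Itga1 was at 359, 290 and 433 CPM against 1183, 997 and 1244 CPM. In the basement membrane list of 9 measured genes, Lamc1 and Nid1 were higher and Lama5 and Sparc lower.

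Membrane and junction genes differed at few points. Of 11 caveolar and membrane curvature genes 4 were higher, namely Cavin3, Prx, Emp2 and Pmp22, and none was lower. Emp2, a tetraspan membrane protein, was at 2458, 2581 and 4097 CPM against 434, 396 and 484 CPM, and Prx (periaxin), a scaffold protein, at 757, 691 and 708 CPM against 147, 150 and 196 CPM. Of 14 junction genes, the adhesion molecule Nectin3 was higher at 264, 290 and 348 CPM against 69.4, 78.4 and 66.9 CPM, and Jam2 was lower.

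Ligands and receptors were split between the classes. Besides the apelin pair that the rule used, Edn1, which encodes endothelin-1, was at 38.6, 38.4 and 23.4 CPM in aerocytes against 374, 300 and 249 CPM in gCap barcodes. Among 8 measured VEGF genes, the receptors Kdr and Nrp1 were higher, while the receptor Nrp2 and the ligands Vegfa and Vegfc were lower. Vegfa was at 30.2, 40.3 and 30.1 CPM against 225, 427 and 308 CPM. Kitl, the ligand of Kit, was among the 17 markers that were higher in aerocytes, and Kit itself, a rule gene, was at 48.5, 49.5 and 39.9 CPM against 504, 571 and 492 CPM.

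The MHC class II genes were lower in aerocytes, while genes of clotting and lipid handling lay on both sides of the gCap level. Of 10 coagulation genes 2 were higher and 3 lower. The plasminogen activator Plau was among those higher (14.1, 18.2 and 28.7 CPM against 0.940, 1.97 and 1.79), and Vwf, Plat and Entpd1 were lower. Vwf, the platelet-binding von Willebrand factor, was at 25.8, 30.3 and 27.8 CPM against 352, 261 and 341 CPM. Of 8 lipid genes, the monoglyceride lipase Mgll was higher at 426, 407 and 673 CPM against 92.1, 77.1 and 133 CPM, and Gpihbp1, Lpl and Fabp5 were lower. Gpihbp1 is a rule gene of the gCap side, so its lower level was fixed by the rule. All 6 measured MHC class II genes, which present antigen to helper T cells, were lower. Cd74, the invariant chain, was at 37.8, 30.1 and 17.9 CPM against 257, 304 and 155 CPM, and H2-Ab1 at 13.1, 12.6 and 18.01 CPM against 124, 130 and 176 CPM.

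Artery and vein markers were mostly lower. Among artery markers 7 of 8 measured and among vein markers 6 of 8 were lower than in gCap barcodes, which can hold cells of arteries and veins. Slc6a2, a noradrenaline transporter of lung veins, was at 9.21, 14.1 and 9.03 CPM against 173, 126 and 137 CPM. Of 4 lymphatic markers measured 1, Lyve1, was lower, and their median level was 67.9%, 43.9% and 31.0% of that in gCap barcodes. Of 5 mural markers measured Myh11 was higher and none was lower, with medians of 245%, 142% and 99.8% of the gCap level. Of 13 gCap markers outside the rule 12 were lower, at a median of 12.4%, 10.9% and 11.2% of the gCap level. The exception was Nostrin, a trafficking factor of nitric oxide synthase, at 151%, 153% and 120% of the gCap level. Of 2 measured markers of AT1 epithelial cells, Hopx was higher, at 1745, 1519 and 1473 CPM against 424, 397 and 392 CPM. The other, Ager, was at 69.6%, 69.4% and 75.7% of the gCap level. Hopx was the 1 AT1 marker of 7 that reached the 10 CPM limit of the time comparisons.

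The share of aerocytes among endothelial barcodes differed between the libraries by a few percentage points. Aerocytes made up 12.8% of endothelial barcodes in the control, with an interval from 12.2% to 13.4%. The 6 h library held 11.3% (interval 10.7% to 11.9%), and the 30 h library held 15.02% (interval 14.3% to 15.8%). The 6 h share was 1.53 points below the control (difference -1.53, interval -2.40 to -0.662) and the 30 h share was 2.24 points above it (1.28 to 3.20). Over the other settings tried, the differences ranged from -1.96 to -0.528 points and from 1.84 to 3.17 points, and the value of -0.528 was that of members with a gCap sum under 4. Their order was the same in barcodes outside the gene limits. Of endothelial barcodes with over 5000 genes, 27.6%, 24.2% and 34.3% met the marker limits. All are shares of the cells that were sorted after digestion. They rest on the same rule and libraries, so the barcodes outside the gene limits are no separate support. The 5 rule genes together were at 3382, 2896 and 3706 CPM in aerocytes, in the same order as the shares. Their part in the shares was not tested.

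At 6 h the aerocytes held more heat shock and fewer glucocorticoid response transcripts, and few genes were past 2-fold. Of 8635 genes measured in aerocytes, those whose average reached 10 CPM, 12 (0.139%) were at least 2-fold higher at 6 h than in the control and 21 (0.243%) at least 2-fold lower. The counts were 12 and 10 without members holding at least 3 UMIs of 47 markers of other cell types. They were 21 and 22 with each barcode thinned to 3000 UMIs, so the excess of lower genes depends on these choices. The median log2 ratio of all genes was 0.01. The 12 higher genes were Hspa1b, Hspa1a, Hsph1, Stip1, Atf3, Bcl3, Bcl6, Nr1d1, Gbp4, Tmem252, Cxcl10 and Mt1, and 8 of them were at least 2-fold higher in gCap barcodes too. Over all 8726 genes measured in gCap barcodes, 29 were at least 2-fold higher and 11 at least 2-fold lower. Past 2-fold lower in both classes were 3 genes. The ratios below are log2 ratios of CPM with 1 added, and their intervals are of the plain CPM ratio.

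Heat shock genes, which encode chaperones that refold proteins, had the highest median ratio of all lists at 6 h. That rank is no independent evidence, since the lists were chosen with earlier results of these data known. Of 16 measured, 15 had ratios above 0 and 3 were past 2-fold, with a median of 0.74 in aerocytes and 0.93 in gCap barcodes. Hspa1b, an inducible Hsp70, was at 24.5, 148 and 15.4 CPM, which gave a log2 ratio of 2.54 at 6 h (2.43 to 2.76). Its neighbour Hspa1a was at 27.3, 121 and 13.6 CPM, and reads of these near-identical copies may be divided between them uncertainly. Hsph1, an Hsp110 chaperone, was at 15.4, 48.6 and 16.8 CPM, and the abundant Hsp90ab1 was at 1082, 2040 and 1410 CPM. In each of these genes the 6 h library was the highest and the 30 h library was nearer to the control. Hspb1, a small heat shock protein, was at 773, 1179 and 919 CPM in aerocytes against 117, 249 and 155 CPM in gCap barcodes, and it was the 1 heat shock gene past 2-fold between the classes in all 3 libraries.

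Immediate early genes, which many stimuli induce within minutes, were only slightly higher at 6 h. Of 17 measured, 12 had ratios above 0, the median was 0.13, and 1 was past 2-fold. That gene was the transcription factor Atf3, at 134, 307 and 107 CPM with a log2 ratio of 1.19 (1.12 to 1.27) in aerocytes and 1.64 in gCap barcodes. In gCap barcodes the median was 0.61, and all 17 genes had lower ratios in aerocytes than in gCap barcodes. Junb was at 896, 1015 and 644 CPM in aerocytes and at 1250, 1906 and 940 CPM in gCap barcodes.

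Most genes of inflammatory signalling had ratios above 0 at 6 h, and few were past 2-fold. All 11 measured NF-kB genes had ratios above 0, with a median of 0.28 beside 0.33 in gCap barcodes. Bcl3, a nuclear partner of NF-kB, was past 2-fold at 17.6, 48.6 and 20.8 CPM. Of 15 JAK-STAT genes 13 had ratios above 0 with a median of 0.27, and Bcl6, a transcription repressor, was past 2-fold at 9.14, 24.1 and 15.6 CPM. Of 18 interferon-stimulated genes 15 had ratios above 0, with a median of 0.15 in both classes and none past 2-fold, but in members with a gCap sum under 4 the aerocyte median was 0.000579. Gbp4, a guanylate-binding protein induced by interferon gamma and named here for its ratio, was at 23.1, 55.9 and 30.6 CPM, with a log2 ratio of 1.24 in aerocytes and 0.63 in gCap barcodes. Cxcl10, a chemokine for T cells, was at 3.09, 29.4 and 3.29 CPM, but 5 barcodes held 81% of its UMIs at 6 h.

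The study's list for reactive capillary cells (rCap) was partly higher in aerocytes at 6 h. It was chosen by the study on cells that included these libraries, so its direction is not independent evidence. Of its 6 measured genes 5 had ratios above 0 with a median of 0.48, beside 0.65 in gCap barcodes. Bcl3 was past 2-fold, as was Tmem252, at 9.21, 20.7 and 9.94 CPM in aerocytes and 106, 192 and 139 CPM in gCap barcodes. The aerocyte level of Tmem252 was 8.69%, 10.7% and 7.16% of the gCap level, no higher than the median of the gCap markers outside the rule. Its ratio was 1.84 in members with a gCap sum under 4 and 1.09 in all, and the part of RNA from gCap cells was not tested. Pim3, a survival kinase, was at 111, 136 and 90.1 CPM in aerocytes, a log2 ratio of 0.28 (0.19 to 0.38), and had a ratio of 0.56 in gCap barcodes. Osmr, the oncostatin M receptor, was at 19.2, 31.1 and 16.5 CPM.

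Glucocorticoid response genes were lower at 6 h. Of 13 measured, 12 had ratios below 0, with a median of -0.51 in aerocytes and -0.73 in gCap barcodes. Fkbp5, a chaperone partner of the glucocorticoid receptor, was at 23.1, 10.5 and 3.61 CPM. Fam107a was at 23.1, 10.8 and 3.23 CPM, and Sult1a1, a sulfotransferase, at 22.04, 10.1 and 7.68 CPM. These 3 genes were past 2-fold at 6 h and lower still at 30 h. The metallothionein Mt1 was the exception, at 12.6, 34.3 and 2.65 CPM, and 5 barcodes held 51% of its UMIs at 6 h.

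Many of the genes lower at 6 h were markers of other cells or came from few barcodes. Of the 21, 4 were in the AT2 and club list and 3 in the red cell list, and Postn (mural), Ccl21a (lymphatic) and Lyz2 (leukocyte) were in other lists. The lung surfactant gene Sftpc was at 423, 76.4 and 46.3 CPM, with 81% of the control UMIs in 5 barcodes, and Hbb-bs, a haemoglobin chain, at 1516, 680 and 338 CPM with 51% in 5 barcodes. Kcnq5, a potassium channel, was at 140, 43.6 and 17.6 CPM with 40% of the control UMIs in 5 barcodes. Without members holding at least 3 UMIs of the 47 markers of other cell types, Kcnq5 was higher at 6 h than in the control. Its log2 ratio was 0.69 in place of -1.66, and Trpc6 and Angpt1 reversed as well.

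At 30 h the aerocytes differed more widely from the control, with lower antioxidant genes. Of the 8635 genes, 61 (0.706%) were at least 2-fold higher and 142 (1.64%) at least 2-fold lower, around a median log2 ratio of -0.09. In gCap barcodes 69 of 8726 genes were higher and 77 lower. Of the genes measured in both classes 28 were higher and 37 lower past 2-fold in both, and 0 went past 2-fold in opposite directions. With scaling by the median of ratios in place of totals, 96 genes were higher and 118 lower, so that the higher genes made up 44.9% of those past 2-fold in place of 30.0%. The ribosomal RNA gene models alone took 18270 CPM at 30 h, against 4583 CPM in the control.

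**Figure D4:**
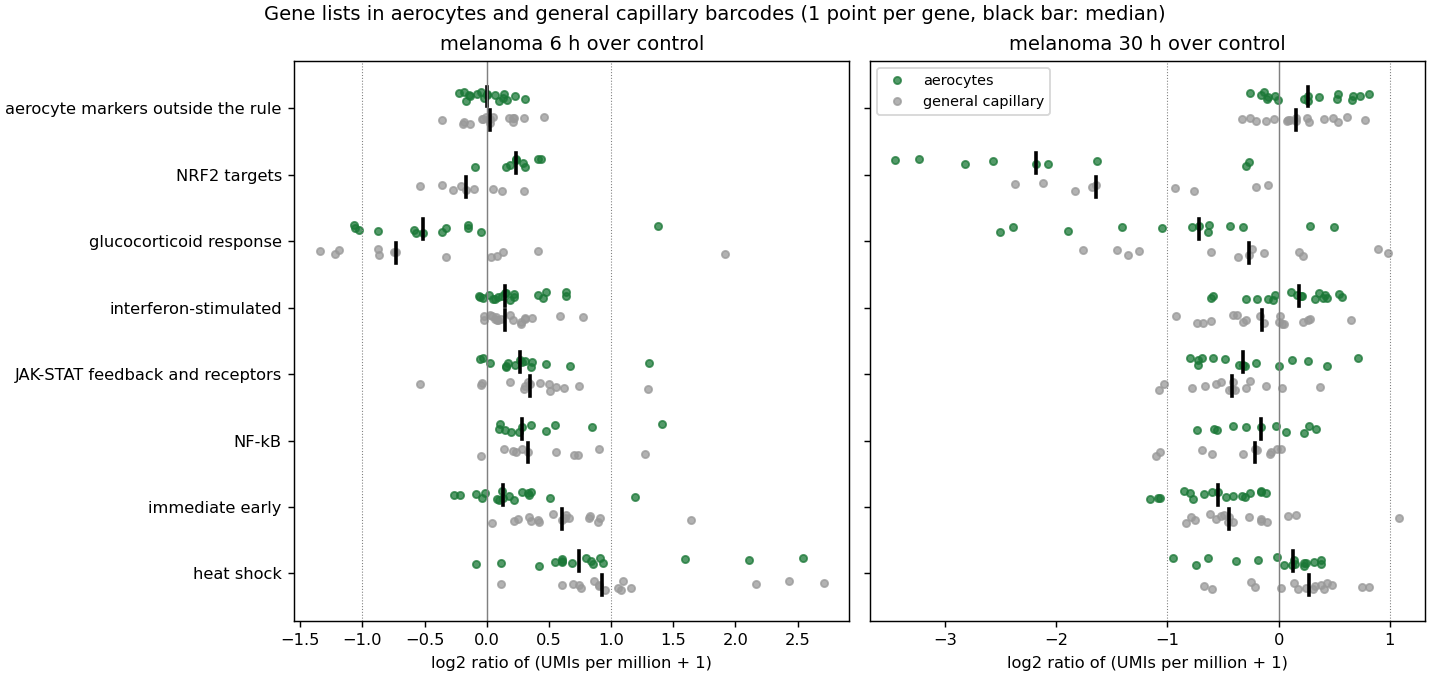
Log2 ratios against the control of the genes of 8 lists in aerocytes and in gCap barcodes, 6 h on the left and 30 h on the right, with 1 point per gene and a black bar at the median. Heat shock genes have medians of 0.74 and 0.93 at 6 h, and NRF2 targets have medians of -2.19 in aerocytes and -1.64 in gCap barcodes at 30 h.

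Targets of NRF2 had the lowest median at 30 h among the lists of endothelial functions and responses. Of the lists of other cells, the AT2 and club markers were lower still at -2.89. The lists were chosen with earlier results of these data known, so this rank is no independent evidence. NRF2 (Nfe2l2) is the transcription factor that turns on glutathione synthesis, quinone reduction and thioredoxin recycling under oxidative stress, through antioxidant response elements near its targets. All 9 measured targets had ratios below 0 at 30 h, 7 were past 2-fold, and the median was -2.19 in aerocytes and -1.64 in gCap barcodes. Over the other settings the median ranged from -2.26 to -1.86. In each of the 9 genes the ratio was lower in aerocytes than in gCap barcodes. Both classes share the control library, so they are given side by side.

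Srxn1 and Nqo1 had the 2 lowest ratios. Srxn1, which repairs oxidized peroxiredoxins, was at 123, 166 and 10.3 CPM in aerocytes, a log2 ratio of -3.45 (-3.82 to -3.34), and at 27.1, 23.4 and 5.45 CPM in gCap barcodes. Nqo1, a quinone reductase, was at 63.3, 74.9 and 5.81 CPM, a log2 ratio of -3.24 (-3.77 to -3.13). Hmox1, which degrades haem, was at 41.5, 50.99 and 6.13 CPM in aerocytes and 12.7, 13.8 and 7.06 CPM in gCap barcodes, with log2 ratios of -2.57 and -0.76. In these genes the control and 6 h libraries lay close together, and the 30 h library was far below both.

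Glutathione and thioredoxin enzymes were also lowest at 30 h. Gclc and Gclm, the catalytic and modifier subunits of the enzyme that starts glutathione synthesis, were at 256, 302 and 55.6 CPM and at 426, 567 and 100 CPM. Txnrd1, thioredoxin reductase, was at 129, 144 and 17.5 CPM in aerocytes and 95.4, 78.7 and 29.2 CPM in gCap barcodes. Gsr, which regenerates glutathione, was at 141, 131 and 44.5 CPM. Of the remaining 2 targets, Prdx1, a peroxiredoxin, was at 608, 751 and 496 CPM and G6pdx, the first enzyme of the pentose phosphate pathway, at 15.4, 17.7 and 12.6 CPM, both within 2-fold. At 6 h, 8 of the 9 had ratios above 0 in aerocytes with a median of 0.24, while the median in gCap barcodes was -0.17.

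The share of barcodes with a UMI was lowest at 30 h as well. Srxn1 had medians of 1, 1 and 0 UMIs per aerocyte, so this share follows the sum and is no second finding. Srxn1 was detected in 55.9%, 65.8% and 10.0% of aerocytes. Thinned to 3000 UMIs per barcode, which removes differences of depth and leaves out 47, 48 and 57 shallower members, the shares were 27.3%, 34.6% and 2.5%. In thinned gCap barcodes they were 6.7%, 6.5% and 1.3%. Nqo1 was detected in 16.7%, 19.5% and 1.3% of thinned aerocytes.

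**Figure D5:**
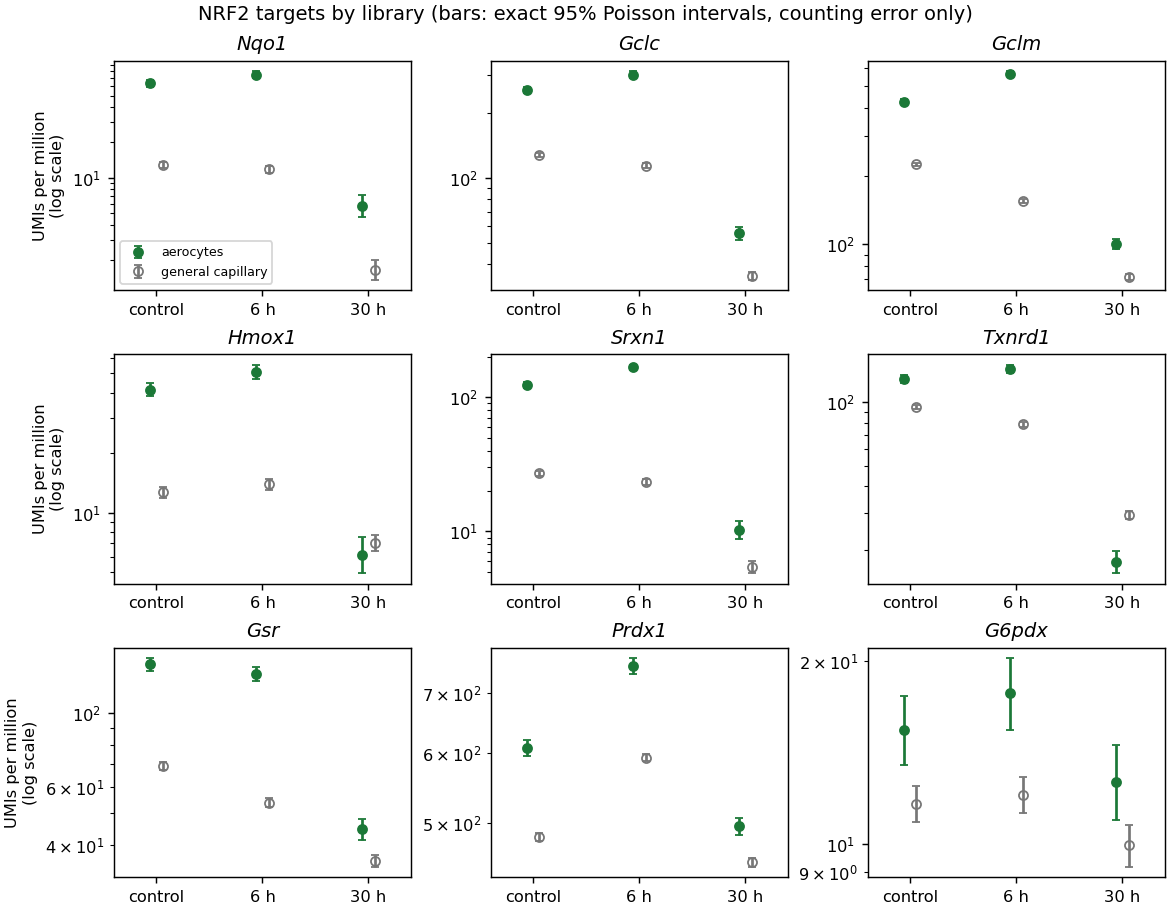
Levels of the 9 measured NRF2 targets in aerocytes (filled) and gCap barcodes (open), in UMIs per 1000000 on a log axis whose range differs between genes, with bars for the 95% counting interval. In aerocytes 7 of the 9 genes lie at least 2-fold below the control at 30 h, among them Gclm at 426, 567 and 100 CPM and Srxn1 at 123, 166 and 10.3 CPM.

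Promoters of 3 of these targets show where the core letters of an antioxidant response element occur. The core was written as TGACNNNGC and searched on both strands (GCNNNGTCA on the other) in RefSeq windows from 250 bases before to 50 bases after a start. Of 12 listed targets 9 had a promoter sequence, and 6 of their 11 promoters (54.5%) held the core. The share was 12.4% over all 32851 promoters and 14.4% over the 8865 promoters of measured genes. These 9 are not the 9 measured targets. They include Gsta3, Slc7a11 and Osgin1, which were not measured in aerocytes, and lack the measured Gclc, Hmox1 and Gsr. The promoter of Gsta3 holds 1 of the 6 matches. A match describes letters and is not a binding site. Such elements are expected near known targets, so the higher share says nothing about the 30 h values. The sequences below are the 250 bases before the start of Gclm (chr3:122245307-122245556), Prdx1 (chr4:116685349-116685598) and Txnrd1 (chr10:82858956-82859205), plus strand, build GRCm38.p6, with the matched core in capitals. They are shown because Gclm and Txnrd1 were past 2-fold lower at 30 h and Prdx1, which holds the core as well, was within 2-fold. Only windows with a match before the start are shown. The promoter of G6pdx, the other measured target within 2-fold, also holds the core before its start and is not shown. The promoter of Nqo1 and the other 2 of Txnrd1 hold none, and that of Srxn1 holds one after the start.
Gclm: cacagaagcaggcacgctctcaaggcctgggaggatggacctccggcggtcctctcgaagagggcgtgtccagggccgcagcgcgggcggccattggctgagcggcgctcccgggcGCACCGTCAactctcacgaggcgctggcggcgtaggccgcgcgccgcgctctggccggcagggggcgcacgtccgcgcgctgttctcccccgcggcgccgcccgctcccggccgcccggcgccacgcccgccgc
Prdx1: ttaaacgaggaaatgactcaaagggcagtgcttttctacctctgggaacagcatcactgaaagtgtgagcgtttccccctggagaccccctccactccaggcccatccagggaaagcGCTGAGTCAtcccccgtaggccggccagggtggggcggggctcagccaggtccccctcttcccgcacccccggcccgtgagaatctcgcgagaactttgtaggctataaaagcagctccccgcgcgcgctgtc
Txnrd1: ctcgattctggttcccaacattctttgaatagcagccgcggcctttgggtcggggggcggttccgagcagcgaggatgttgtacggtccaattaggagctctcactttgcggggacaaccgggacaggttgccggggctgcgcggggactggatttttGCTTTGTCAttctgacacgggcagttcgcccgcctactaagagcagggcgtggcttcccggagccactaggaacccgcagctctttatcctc

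Genes that the list of targets used here does not hold were also lower at 30 h. Whether NRF2 acts on any of them was not tested. Slc40a1 (ferroportin), which exports iron, was at 122, 111 and 16.8 CPM in aerocytes, and the glycine transporter Slc6a9 was at 60.3, 64.2 and 7.68 CPM. Mthfd2, a mitochondrial enzyme of one-carbon metabolism, was at 61.9, 37.6 and 6.07 CPM, with a log2 ratio of -3.15 in aerocytes and -1.19 in gCap barcodes. Gadd45a, a stress gene, was at 40.7, 26.9 and 7.23 CPM, with ratios of -2.34 and -0.67. Pgd, an enzyme of the pentose phosphate pathway, was at 66.3, 94.4 and 19.7 CPM, with ratios of -1.70 and -0.56. The cell cycle inhibitor Cdkn1a was at 1857, 1443 and 896 CPM, with ratios of -1.05 and -0.24, and Auts2 at 479, 274 and 156 CPM, with ratios of -1.61 and -0.54. Each of these was lower in both classes, with the ratio nearer to 0 in gCap barcodes.

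Lpl and Ptgs1 were past 2-fold lower in both classes. Lpl, lipoprotein lipase, was at 103, 90.9 and 25.2 CPM in aerocytes and at 815, 832 and 226 CPM in gCap barcodes. Ptgs1, cyclooxygenase 1, was at 31.1, 21.0 and 6.78 CPM in aerocytes and at 192, 118 and 56.8 CPM in gCap barcodes. Both genes were higher in gCap barcodes, and in the members with a gCap sum under 4 their log2 ratios in aerocytes were -1.80 and -2.11, beside -1.98 and -2.05 over all members. Lpl in aerocytes was at 12.6%, 10.9% and 11.2% of the gCap level, and the part of RNA from gCap cells was not tested.

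Immediate early and glucocorticoid genes were lower at 30 h. All 17 immediate early genes had ratios below 0, with a median of -0.55 in aerocytes and -0.45 in gCap barcodes, and Fosb, Fos and Egr3 were past 2-fold. Fosb was at 303, 331 and 136 CPM. Of 13 glucocorticoid response genes 11 had ratios below 0 with a median of -0.71, beside -0.27 in gCap barcodes, and 12 had lower ratios in aerocytes than in gCap barcodes. The 5 genes past 2-fold were Fkbp5, Fam107a, Sult1a1, Mt1 and Cdkn1a.

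Apln and Cxcl12, which encode signalling ligands, were past 2-fold higher at 30 h. Apln is a rule gene, so its values are a description of barcodes chosen in part by it. It was at 129, 184 and 328 CPM in aerocytes (123 to 135, 177 to 192 and 319 to 337), a log2 ratio of 1.34 at 30 h. Apln was at 6.61, 7.89 and 16.7 CPM in gCap barcodes and at 24.8, 32.4 and 73.0 CPM in empty droplets. Apln UMIs were detected in 57.1%, 63.8% and 82.1% of aerocytes and, after thinning, in 29.7%, 33.9% and 53.5%. Cxcl12, a chemokine that binds Cxcr4, was at 38.0, 35.3 and 145 CPM in aerocytes and 320, 332 and 1164 CPM in gCap barcodes, with log2 ratios of 1.90 and 1.86. Its aerocyte level was 11.9%, 10.7% and 12.4% of the gCap level, close to the median of the gCap markers outside the rule, and empty droplets held it at 163, 172 and 580 CPM. In members with a gCap sum under 4 the ratio was 2.02, and how much of it is RNA from gCap cells was not tested. Since Apln counts towards the marker sum, its level also adds to the higher marker sums at 30 h.

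Surface and secreted proteins made up further genes past 2-fold. Mmp15, a membrane metalloproteinase, was at 14.2, 15.2 and 48.3 CPM, with log2 ratios of 1.69 in aerocytes and 0.79 in gCap barcodes. Tbxa2r, the thromboxane receptor, was at 38.0, 35.5 and 119 CPM, with ratios of 1.62 and 1.15. Nptx1, a secreted pentraxin, was at 34.3, 50.4 and 106 CPM, with ratios of 1.60 and 0.60. Cx3cl1 (fractalkine), a membrane-bound chemokine, was at 61.1, 67.0 and 138 CPM in aerocytes and 28.4, 37.1 and 32.8 CPM in gCap barcodes, with ratios of 1.16 and 0.20. All 6 measured genes of the leukocyte adhesion list had higher ratios in aerocytes than in gCap barcodes at 30 h. The medians were 0.91 and 0.32. The median difference between the classes was 0.41 in this list and -0.02 over the genes measured in both. Of the 6, Cxcl10 reached the 10 CPM limit only through the 6 h library, and Cxcl12 had nearly equal ratios in both classes.

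A few genes were higher at 30 h in aerocytes and close to the control in gCap barcodes. Nckap5 was at 211, 220 and 417 CPM in aerocytes and had log2 ratios of 0.98 and 0.00. Arhgap20 was at 17.3, 23.5 and 36.9 CPM with ratios of 1.05 and 0.04, and Ifitm10 at 24.7, 26.8 and 51.8 CPM with ratios of 1.04 and 0.10. Thbd (thrombomodulin), a cofactor that turns thrombin against clotting, was at 659, 616 and 1108 CPM with ratios of 0.75 and 0.19. Whether the classes responded differently cannot be tested with 1 library per group.

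The genes with the highest ratios at 30 h need to be read with the library in view. Fabp4, a fatty acid carrier, was at 9.21, 8.92 and 87.3 CPM, and 5 barcodes held 85% of its UMIs at 30 h. Gm42418, at 3830, 4837 and 14396 CPM, and Gm15564, Cmss1, Cdk8 and Lars2 can collect ribosomal RNA reads, and the same list was higher in gCap barcodes, at 5133, 6362 and 21855 CPM. Camk1d, a kinase, was at 280, 381 and 890 CPM, and Pdia5, a disulfide isomerase of the endoplasmic reticulum, at 34.2, 34.0 and 89.3 CPM.

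Medians of the aerocyte markers stayed within 2-fold of the control. Of the 17 outside the rule, 8 had ratios above 0 at 6 h around a median of 0.00, and 10 had ratios above 0 at 30 h with a median of 0.26. The median in gCap barcodes at 30 h was 0.16. Car4 had a log2 ratio of -0.18 at 6 h (-0.21 to -0.16) and 0.54 at 30 h (0.52 to 0.56), Emp2 of 0.07 and 0.74, Kdr of 0.00 and 0.67, and Icam2, an adhesion molecule, of 0.14 and 0.82. Of the 5 rule genes Apln was past 2-fold at 30 h, with ratios of 0.51 at 6 h and 1.34 at 30 h. Ednrb had ratios of -0.29 and 0.29, Fibin of -0.65 and -0.28, Tbx2 of 0.07 and 0.01 and Chst1 of 0.30 and 0.24. The study's aerocyte list had medians of -0.07 at 6 h and -0.03 at 30 h, and the latter changed sign to 0.06 under median-of-ratios scaling. Auts2 was its 1 gene past 2-fold, lower at 30 h.

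Counted per cell, the same genes showed the spread among members. Median UMIs per aerocyte were 12, 10 and 16 for Ednrb, 9, 5 and 9 for Fibin, 6, 7 and 7 for Tbx2, 2, 3 and 3 for Chst1, 1, 1 and 3 for Apln and 20, 17 and 33 for Car4. Ednrb was detected in 96.4%, 96.8% and 97.6% of aerocytes and in 14.8%, 13.2% and 16.2% of gCap barcodes, where it was at 33.4, 26.5 and 35.1 CPM. Its level in empty droplets was 184, 149 and 236 CPM, above that in gCap barcodes, so a UMI of Ednrb in a gCap barcode can be free RNA.

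The direct comparison of 30 h with 6 h, in which both libraries came from mice with melanoma cells, also had NRF2 targets far lower. The AT2 and club list, which was lowest against the control, had a median of -0.62 here with none past 2-fold. Of 8635 genes 96 (1.11%) were at least 2-fold higher and 113 (1.31%) at least 2-fold lower at 30 h, around a median of -0.11. Under median-of-ratios scaling 123 were higher and 86 lower, so that the higher genes made up 58.9% in place of 45.9% and the majority turned. The NRF2 list was below 0 in 9 of 9 genes with 7 past 2-fold and a median of -2.48. Heat shock genes were below 0 in 15 of 16 and immediate early genes in 17 of 17, with medians of -0.64 and -0.66 and 4 and 6 genes past 2-fold. Iigp1 and Irgm1, GTPases induced by interferon, were at 40.0, 62.1 and 27.0 CPM and at 53.6, 74.7 and 35.2 CPM, and Stat3 was at 191, 231 and 110 CPM. The comparison shares the 30 h library with the comparison against the control, so it is not a second measurement of the 30 h values.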

How the data were processed

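Endothelial cells of 3 lung samples were profiled with 10x 3′ chemistry. The authors deposited unfiltered UMI counts for each gene in each barcode, made with Cell Ranger 7.2.0, with Seurat 4.4.0 also named in the submitters' processing notes, on build mm10. The study's methods name an older Cell Ranger. Whether intronic reads were counted is not given in the sources used here. Groups came from the treatment labels. Barcodes were filtered and assigned by the marker limits stated in the report, with the study's limits on genes and mitochondrial UMIs; 31947 barcodes met the latter, of 43842 with at least 300 genes. Counts were summed per library and class (Python 3.11.15, numpy 2.4.6, scipy 1.17.1, pandas 2.3.3) and scaled to CPM. Ratios are log2 of CPM with 1 added, with exact conditional binomial intervals; shares have exact Clopper-Pearson intervals and levels exact Poisson intervals. A gene was counted as called past 2-fold, with a mean of at least 10 CPM. With 1 library per group no test was made. Doublets were marked with Scrublet (scanpy 1.11.5) and removed only in an alternative. The sums were checked on simulated data. Gene positions are from GENCODE M21 (GRCm38, the assembly of mm10) and promoters from RefSeq.

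Named genes were the rule genes and Car4, the extremes and highest of each list (or a whole list of up to 10), the 15 highest and 15 lowest ratios against gCap barcodes, the 12 at each end of each time comparison with at least 20 CPM, and the 8 at each end of the difference between classes; a few others are named as members of a list or of a count. The aerocyte rule, the gene lists and the alternatives were chosen with earlier results of these data known. Some genes that the rule would name are not reported here.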

Additional observations from a re-analysis of the deposited data

Results flagged for a closer look

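Among genes that averaged 20 CPM or more in both classes, the 8 with the most unequal ratios at each end were taken at 6 h and at 30 h, and 14 of them had log2 ratios on opposite sides of 0 in aerocytes and gCap barcodes, beyond their counting intervals. Genes outside this choice did so too, some of them by larger differences. The difference was not tested in any of them, since each class has 1 sum per library. At 6 h the ratio in aerocytes minus that in gCap barcodes was 0.95 for Gclm, the modifier subunit of glutathione synthesis (0.41 in aerocytes and -0.54 in gCap barcodes), and 0.65 for Pgd (0.50 and -0.14). It was 0.65 for Vwf (0.22 and -0.43), 0.66 for Rab27b (0.48 and -0.18) and 1.12 for Cyp1a1, a detoxifying cytochrome (0.25 and -0.87). It was -0.93 for Errfi1, an inhibitor of the EGF receptor (-0.51 and 0.41), and -1.18 for the stress gene Gadd45b (-0.36 and 0.81).

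For genes of other cells the difference at 6 h was -1.96 for Lyz2 (-1.60 and 0.36) and -2.69 for Sftpc (-2.45 and 0.24), and 5 aerocyte barcodes held 71% and 81% of their control UMIs. When every endothelial barcode of 300 or more genes was kept, the aerocyte ratios were 0.48 for Lyz2 and 0.33 for Sftpc, which ends the opposite direction. At 30 h it was -1.50 for Cox4i2 (-1.25 and 0.25), -1.26 for Postn (-1.02 and 0.23), -1.47 for Ccl21a (-0.71 and 0.76), -1.20 for 4930523C07Rik (-0.99 and 0.21) and 1.87 for 2700054A10Rik (0.44 and -1.44). Cox4i2 and Postn are mural genes and Ccl21a is a lymphatic gene.

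Barcodes outside the gene limits were not used by the comparisons in the report, while 1 alternative setting did use them. More of them met the marker limits at 30 h than in the control. The rule and the libraries are the same, so this is no separate support for the shares. Of endothelial barcodes with over 5000 genes, 34.3% met the marker limits at 30 h (31.4% to 37.3%) and 27.6% in the control (25.3% to 30.1%). Of those with at least 300 and under 1000 genes, 5.11% met them at 30 h and 2.46% in the control.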

How the results depend on the processing

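No paired analysis was possible because each group holds 1 library. Of 112 repeated counts 88 lay within 1.5 times the value in the report, and 26 of 27 share differences lay within their counting interval. Of 1089 list medians 1082 lay within an interval of the median taken from the ordered genes of the list. In short lists this interval is the whole range of the genes, so a median can hardly leave it. Of 6138 repeated ratios of named genes 5034 lay within their counting interval, 1086 lay outside it, and 18 that were past 2-fold in the report's setting changed sign. The setting without artery, vein or lymphatic markers kept 75, 83 and 109 gCap barcodes, so its counts rest on few of them. Requiring a gCap sum under 4, a setting chosen after seeing the data, gave a share difference of -0.528 points at 6 h. A mean of at least 50 CPM left 194 genes higher and 201 lower than in gCap barcodes, 4 and 6 at 6 h, 24 and 53 at 30 h, and 38 and 50 between 30 h and 6 h. Without a limit on low levels 725 genes were lower than in gCap barcodes, 38 higher and 92 lower at 6 h, 191 and 333 at 30 h, and 272 and 226 between 30 h and 6 h. Adding 10 CPM gave 6 and 9 at 6 h, 29 and 74 at 30 h, and 32 and 58 between them. Median-of-ratios scaling gave 96 higher at 30 h, and thinning each barcode to 3000 UMIs gave 21 higher at 6 h. For the limit, the added CPM and the scaling the change follows from fewer, more or shifted genes past the fold; for the others the cause was not tested.

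Leaving out barcodes with at least 3 UMIs of other cell types left 13, 31 and 30 members and gave no value, so a trimmed limit was set after seeing the data. The trimmed limit counted 47 of the 55 markers, among them Postn, whose own change of sign is thus partly built in. It kept 1109, 890 and 1076 members. It left 10 genes lower at 6 h, of which 7 were among the 21, and turned the log2 ratio to 0.69 for Kcnq5, 0.51 for Trpc6, 0.17 for Angpt1, 0.31 for Postn and 0.00101 for Sftpb at 6 h, and to 0.18 for Kcnq5, 0.37 for Trpc6, 0.076 for Angpt1, 0.33 for Mmrn1 and 0.17 for Adgrg6 at 30 h. Allowing 300 genes and no upper limit turned it to 1.53 for Scgb1a1, 0.55 for Sftpb, 0.48 for Lyz2, 0.30 for Sftpa1 and 0.33 for Sftpc at 6 h, and to 0.73 for Lyz2, 0.15 for Sftpa1 and 0.073 for Sftpc at 30 h. The cause was not tested.

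The list medians that moved were the study's aerocyte list, 0.20 between 30 h and 6 h, and the integrins, 0.35 at 30 h, under median-of-ratios scaling, the gCap markers at 6 h, -0.09 without marked doublets and -0.02 with a gCap sum under 4, the mural list at 6 h, -0.46 at a limit of 3 UMIs and -0.43 with 10 CPM added, and the interferon list at 6 h, 0.000579 with a gCap sum under 4. Median-of-ratios scaling also changed the sign of medians close to 0: transcription factors reached 0.04 at 30 h and 0.05 between 30 h and 6 h, and the rCap list 0.03 at 30 h. At this depth 3 UMIs set a floor near 0.2 CPM, and genes carried by few barcodes depend on single droplets.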

Other observations

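Clock genes, which keep the daily rhythm, differed between the libraries in aerocytes. The repressor Nr1d1 was at 8.60, 25.6 and 26.8 CPM in the order control, 6 h, 30 h, the activator Arntl at 29.9, 22.05 and 12.4 CPM and Cry1 at 32.0, 32.0 and 13.4 CPM. Per1 was at 26.7, 14.1 and 32.8 CPM. Of 8 measured clock genes 1 was past 2-fold higher and 2 were past 2-fold lower at 30 h, and in gCap barcodes Nr1d1 was at 9.85, 15.8 and 24.1 CPM and Arntl at 38.6, 27.0 and 17.3 CPM. The time of day at which the mice were taken is not given in the sources used here.

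Further genes lower at 30 h were chosen after their values were seen. Asns, which makes asparagine, was at 113, 120 and 34.5 CPM, with a log2 ratio of -1.69 in aerocytes and -0.36 in gCap barcodes. Eif4ebp1, an inhibitor of translation start, was at 133, 100.1 and 49.95 CPM, with ratios of -1.39 and -0.34, and Slc7a1, a transporter of basic amino acids, at 24.7, 17.6 and 9.10 CPM, with ratios of -1.35 and 0.31. The transcription factor Atf5 was at 26.7, 33.4 and 11.1 CPM and the secreted stress factor Gdf15 at 65.3, 62.7 and 22.3 CPM. Also chosen after their values were seen, the chaperone Calr was at 145, 156 and 364 CPM and Fkbp2 at 44.3, 40.9 and 97.8 CPM, with log2 ratios of 1.32 and 1.13 in aerocytes and 1.38 and 1.12 in gCap barcodes.

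Of 14 cell cycle genes 6 reached the 10 CPM limit in aerocytes. The proliferation marker Mki67, under it, was at 0.538, 0.405 and 0.323 CPM, while Pcna, a replication clamp, was at 74.3, 81.6 and 72.7 CPM and the replication helicase subunits Mcm3 and Mcm6 at 26.5, 32.0 and 20.01 CPM and 15.99, 16.9 and 14.3 CPM. The G1 cyclins Ccnd1 and Ccnd2 were at 209, 255 and 408 CPM and at 85.9, 125 and 130 CPM.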
